A study of Mus musculus with 6 samples.

Results

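Annexins are calcium-dependent proteins that bind acidic phospholipids on the inner face of membranes, and several of them pair with small calcium sensors of the S100 family. The set described here was 8 annexin genes (Anxa1 to Anxa7 and Anxa11) with S100a10 and S100a11, 10 of the 22173 genes in the deposited liver table. Anxa2 was chosen by its measured decrease in DDK livers, and the others were added as its relatives and partners, so the difference between the treatments is given for all 10 as a description, with its standard error and with no p-value. All 10 were above 0 in every library and all 10 passed the filter on low values.

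The livers came from wild-type mice that started the HFHC diet at 6 weeks of age and ate it for 16 weeks. During the last 4 weeks 3 mice received DDK, which the title of the series calls a limonoid, and 3 received vehicle. Vehicle livers are thus diseased controls on the same diet, and there was no group on another diet. Expression was measured by RNA-seq of whole liver and given as FPKM, fragments scaled to gene length and to library size, from libraries of 26576291 to 36105315 fragments. Whole liver pools hepatocytes with immune, stellate, endothelial and bile duct cells, so fewer cells of a type and less RNA per cell cannot be told apart. Albumin, Alb, the main hepatocyte product, stood at an FPKM of 17336 to 37838, in keeping with the tissue label.

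Annexin A2 joins with S100A10 in a tetramer that sits at the cell surface and in endosomes, where it binds plasminogen and its activator, and S100A10 protein is known to be unstable without annexin A2. Annexin A1 pairs in a similar way with S100A11 and, once secreted, signals through formyl peptide receptors to restrain inflammation. Annexin A5 binds phosphatidylserine, the lipid that dying cells expose. In healthy liver some annexins, but not all, are known mainly from non-parenchymal and bile duct cells. Annexins A2 and A5 are known to increase in injured liver.

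The 10 genes did not move as one. Anxa2 and Anxa5 were far lower in DDK livers, S100a11 and Anxa1 stood at 26.3% and 29.1% of their vehicle means, Anxa11, Anxa3 and Anxa6 were moderately lower and Anxa4 slightly lower, while Anxa7 and S100a10 differed little. The partner of Anxa2 therefore did not share its difference at the transcript level: S100a10 stood at 93.1% of its vehicle mean and Anxa2 at 10.7%. Every DDK value lay below every vehicle value for 9 of the 10, S100a10 being the exception, where 39.2% of the 10681 genes tested showed that order. With limma's adjusted p under 0.05 as the threshold, 8 of 10 were lower in DDK and 0 higher, beside 40.5% of all genes in either direction, 30.3% lower and 10.2% higher. Since the set was built on this comparison, nothing is read from these counts. The median log2 difference was -0.83 over the 10 genes and -0.23 over all genes.

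**Figure D1:**
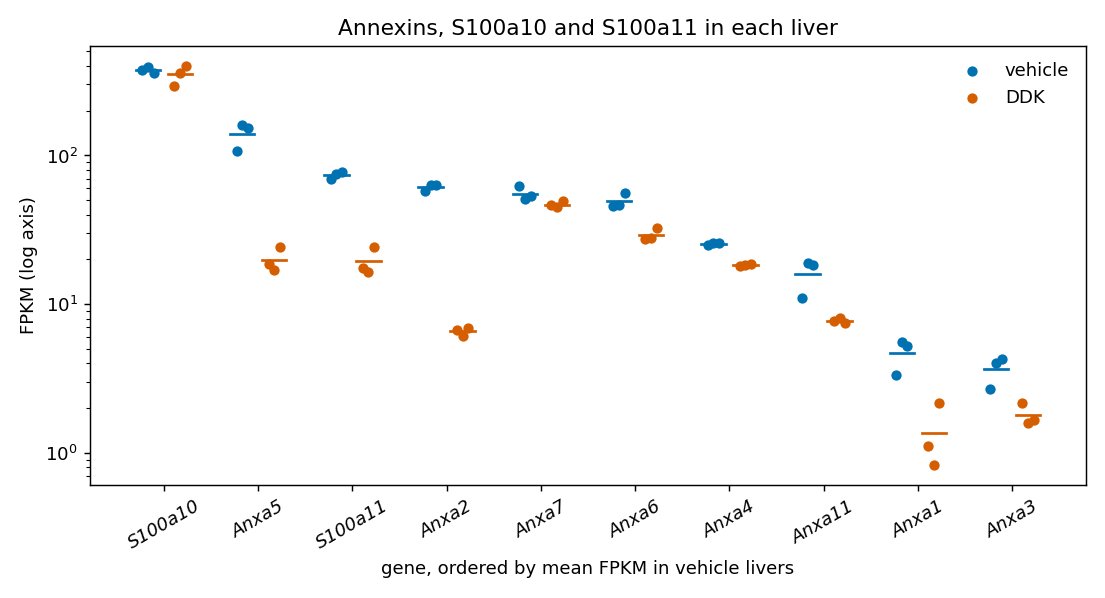
FPKM (log axis) of the 10 genes in each liver, vehicle in blue and DDK in orange, points for single livers and bars for group means (n = 3). Anxa2, Anxa5 and S100a11 show wide gaps between the groups, and S100a10 points overlap.

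The sequences just upstream of the genes are shown for the 3 largest decreases and for Anxa7, which differed little, so that genes that separated in expression can be compared at their starts. RefSeq windows on GRCm38.p6 matched 7 of the 10 genes, and Anxa3, Anxa6 and S100a10 had no entry. Each stretch below runs 5′ to 3′ on the gene's strand and ends before the first base of the gene in RefSeq or GENCODE, whichever lies further upstream. Capitals mark matches, on either strand, to TGANTCA for AP-1, to GGGCGG for the GC box, to CACGTG for the E-box, to TATAAA for the TATA box or to CCAAT for the CCAAT box.
Anxa2, chr9:69453433-69453619, plus strand: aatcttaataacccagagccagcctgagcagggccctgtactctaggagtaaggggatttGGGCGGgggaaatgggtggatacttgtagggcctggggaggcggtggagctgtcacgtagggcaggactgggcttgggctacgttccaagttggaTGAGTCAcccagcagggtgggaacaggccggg
Anxa5, chr3:36475895-36476137, minus strand: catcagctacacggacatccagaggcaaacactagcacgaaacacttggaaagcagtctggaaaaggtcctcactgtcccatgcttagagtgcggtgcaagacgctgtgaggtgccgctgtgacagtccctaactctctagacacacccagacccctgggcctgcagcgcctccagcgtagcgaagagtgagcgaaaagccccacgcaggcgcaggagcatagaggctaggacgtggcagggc
S100a11, chr3:93520246-93520487, plus strand: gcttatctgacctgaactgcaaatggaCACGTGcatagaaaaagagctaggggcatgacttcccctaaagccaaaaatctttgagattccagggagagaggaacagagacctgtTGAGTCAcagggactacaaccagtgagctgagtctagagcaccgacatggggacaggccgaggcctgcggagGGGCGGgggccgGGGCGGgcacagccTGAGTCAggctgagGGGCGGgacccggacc
Anxa7, chr14:20480134-20480383, minus strand: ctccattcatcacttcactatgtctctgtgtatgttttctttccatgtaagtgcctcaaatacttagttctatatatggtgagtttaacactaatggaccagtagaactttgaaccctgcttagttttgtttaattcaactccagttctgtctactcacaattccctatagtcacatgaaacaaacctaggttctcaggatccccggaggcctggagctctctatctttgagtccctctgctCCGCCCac

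In the 250 bases upstream of the RefSeq start, the AP-1 letters occurred once in Anxa2 and at 2 positions in S100a11, and in none of the other 5 windows. Of all 32851 windows of that length, 6.75% held them. Anxa2 and S100a11 each had 3 GC boxes, as did Anxa11, and Anxa7 had 1, where 32.7% of all windows held one. The Anxa2 window held 2 of its GC boxes and a TATA match (12.4% of all windows, also found in Anxa1) nearer the RefSeq start than the stretch printed, S100a11 held the only E-box (6.02% of all windows), and no member held CCAAT (33.8% of all windows). Anxa5, with the next largest decrease after Anxa2, had none of the 5 motifs. These are matches of letters only. The Anxa1 window is upstream of the RefSeq start (20390671) but inside the gene as GENCODE draws it, which starts at 20390944 on the minus strand. Likewise, the 2 unprinted GC boxes and the TATA match of Anxa2 are upstream of its RefSeq start (69453683). They lie inside the gene as GENCODE draws it, which starts at 69453620.

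Anxa2 lies on chromosome 9 (69453620 to 69491795 on GRCm38, plus strand, GENCODE M21). It stood at an FPKM of 6.75, 6.09 and 6.97 in DDK replicates 1 to 3 and at 57.7, 63.6 and 63.3 in vehicle replicates 1 to 3. The livers of a group were close together, and the lowest vehicle liver was still far above the highest DDK liver. Means were 6.60 ± 0.458 and 61.5 ± 3.33 (SD, n = 3 per group), 9.32 times higher in vehicle, with a log2(FPKM + 1) difference of -3.04 ± 0.12 (SE). Between 291 and 379 fragments in DDK and 3747 to 3910 in vehicle stood behind these values. An antisense gene, Gm16144, overlaps Anxa2, and the library kit does not mark strand, so fragments of the overlap cannot be told apart. In every alternative the Anxa2 difference stayed between -3.34 and -2.75.

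S100a10, on chromosome 3 (93555080 to 93564643, plus strand), encodes the S100 partner of annexin A2 and was the most abundant of the 10 transcripts. Its FPKM was 293, 357 and 400.01 in DDK and 374, 394 and 359.9 in vehicle. The groups overlapped, DDK replicate 1 being the lowest and DDK replicate 3 the highest liver of all 6. Means were 350.03 ± 53.9 and 376 ± 17.2, and the log2 difference was -0.11 ± 0.15 (95% interval -0.44 to 0.21), which leaves room for a modest change in either direction. Its sign depended on scaling, at 0.20 after median-ratio scaling, -0.35 after rescaling to TPM and 0.01 without DDK replicate 1.

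Gene length bears on this value. S100a10 was counted over 650 bp, and the 369 tested genes of 400 to 800 bp had a median log2 difference of 0.50, against -0.21 for the 3485 genes of 1600 to 3200 bp. With each library's trend on gene length removed, S100a10 stood at -0.61, past the threshold, and Anxa2 at -2.92. The gap between the partners thus narrowed under that correction, and Anxa2 was still much lower. Among single libraries, the ratio of S100a10 to Anxa2 FPKM was 6.48, 6.196 and 5.69 in vehicle and 43.4, 58.7 and 57.4 in DDK, a ratio that no scaling of whole libraries alters. Every DDK liver lay well above every vehicle liver.

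**Figure D2:**
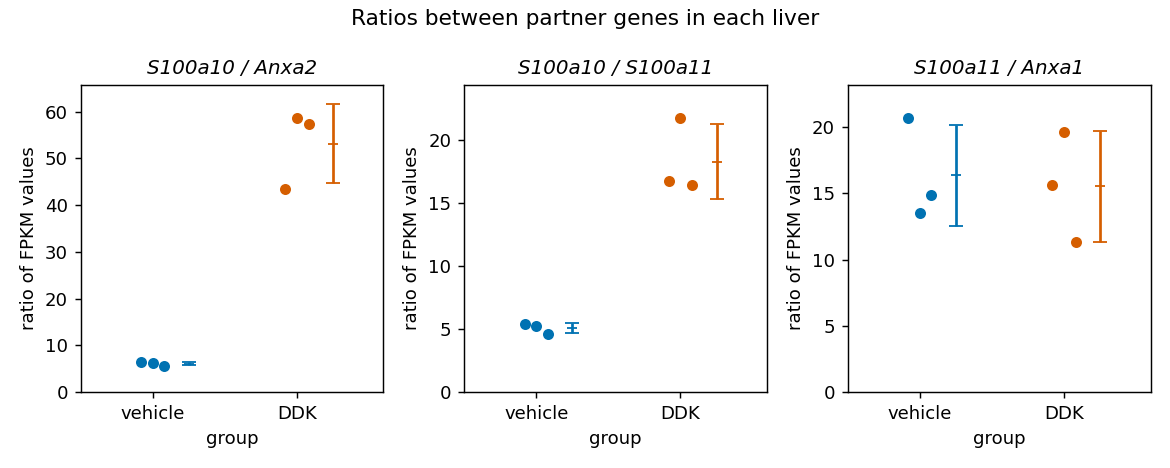
Ratio of FPKM values between partner genes (vertical axes, starting at 0) for vehicle and DDK livers, points for single livers and bars for mean ± SD (n = 3). S100a10 was higher relative to Anxa2 and to S100a11 in all DDK livers, while S100a11 against Anxa1 overlapped between the groups.

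S100a11 is the neighbour of S100a10 on chromosome 3 (93520488 to 93526287, plus strand), 28792 bases upstream with 0 protein-coding genes between them, and the pair differed although they share a strand and a locus. S100a11 FPKM was 17.5, 16.4 and 24.4 in DDK and 69.4, 75.02 and 77.6 in vehicle. Means were 19.5 ± 4.33 and 74.0 ± 4.21, and the log2 difference was -1.89 ± 0.16. DDK livers thus held 26.3% of the vehicle level, with no overlap. Both genes are short, and for S100a11 (504 bp) the length correction moved the difference away from 0, to -2.56. The ratio of S100a10 to S100a11 was 5.38, 5.25 and 4.64 in vehicle and 16.7, 21.7 and 16.4 in DDK. The next protein-coding neighbours, Tchhl1 and Tdpoz2, were at or near 0 in every liver.

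Anxa1 encodes the pro-resolving annexin that pairs with S100A11 (chromosome 19, 20373428 to 20390944, minus strand). It was low in all livers, at an FPKM of 1.122, 0.836 and 2.16 in DDK and 3.36, 5.54 and 5.23 in vehicle. The highest DDK liver lay below the lowest vehicle liver, and the log2 difference was -1.28 ± 0.23. The pseudocount of 1 shrinks differences of genes this low, and at a pseudocount of 0.1 the value was -1.78. Only 31 to 91 fragments in DDK and 169 to 264 in vehicle were behind it, and the lincRNA 1500015L24Rik overlaps it on the other strand. Unlike the Anxa2 pair, S100a11 and Anxa1 kept a similar ratio, 15.5 ± 4.16 in DDK and 16.4 ± 3.81 in vehicle, with overlapping groups. Scaling of whole libraries does not alter this ratio. The log2 differences of S100a11 and Anxa1 were -1.94 and -1.78 at a pseudocount of 0.1. After length correction, at the pseudocount of 1, they were -2.56 and -1.29. That last gap mixes the pseudocount with gene length, and the ratio was not shown to stay similar once length is corrected.

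Anxa5, the phosphatidylserine-binding annexin (chromosome 3, 36448923 to 36475894, minus strand), came second only to Anxa2 in the size of its difference. Its FPKM was 18.7, 16.9 and 24.3 in DDK and 106, 161 and 153 in vehicle. Vehicle replicate 1 was the lowest of its group and still over 4 times the highest DDK liver. Means were 20.0 ± 3.88 and 140 ± 29.4, a 7.01-fold gap, and the log2 difference was -2.74 ± 0.19 and ranged from -3.00 to -2.44 over the alternatives. Anxa5 was the leading annexin transcript of vehicle livers, at 39.0% ± 4.58 of the summed FPKM of the 8 annexins, and held 15.0% ± 1.79 in DDK.

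Anxa11 and Anxa6 followed at smaller sizes. Annexin A11 tethers RNA granules to lysosomes and binds the calcium sensor encoded by Pdcd6. Anxa11 FPKM (chromosome 14, 25842156 to 25886804, plus strand) was 7.67, 8.11 and 7.50 in DDK and 11.04, 18.8 and 18.3 in vehicle. The 3 DDK livers were nearly equal, vehicle replicate 1 stood between the groups, and the log2 difference was -0.92 ± 0.19. The antisense gene Anxa11os overlaps Anxa11. Annexin A6 has a duplicated core and takes part in endosomal cholesterol transport. Anxa6 FPKM (chromosome 11, 54979108 to 55033445, minus strand) was 27.6, 28.1 and 32.5 in DDK and 45.4, 46.5 and 55.8 in vehicle, a log2 difference of -0.72 ± 0.13 with no overlap (-0.42 after median-ratio scaling).

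Anxa3 (chromosome 5, 96793339 to 96845966, plus strand), an annexin linked to blood vessel growth, was as low as Anxa1. Its FPKM was 2.15, 1.58 and 1.66 in DDK and 2.68, 4.02 and 4.30 in vehicle, from 93 to 137 and 214 to 323 fragments. The gap between the nearest livers was small, and the log2 difference was -0.73 ± 0.17 (-0.44 after quantile normalization). Anxa4 (chromosome 6, 86736840 to 86793584, minus strand), an annexin of epithelial cells, was the steadiest of the set within groups, at 18.2, 18.5 and 18.7 in DDK and 24.8, 25.8 and 25.7 in vehicle. Its log2 difference was -0.44 ± 0.11, close enough to that of all genes that its call was lost under length correction (-0.20), median-ratio scaling (-0.15) and quantile normalization (-0.26). Leaving out vehicle replicate 3, or either of DDK replicates 1 and 2, also ended the call (-0.44 to -0.43).

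Anxa7 encodes synexin, which promotes membrane fusion and binds the calcium sensor sorcin (chromosome 14, 20455260 to 20480133, minus strand). Its FPKM was 46.3, 44.9 and 49.2 in DDK and 61.9, 50.6 and 53.2 in vehicle. The groups were separated by a narrow margin, with a log2 difference of -0.23 ± 0.13 (95% interval -0.51 to 0.05), the same as the median of all genes. After median-ratio scaling it stood at 0.07, after length correction at 0.04 and after rescaling to TPM at -0.47, the last past the threshold.

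**Figure D3:**
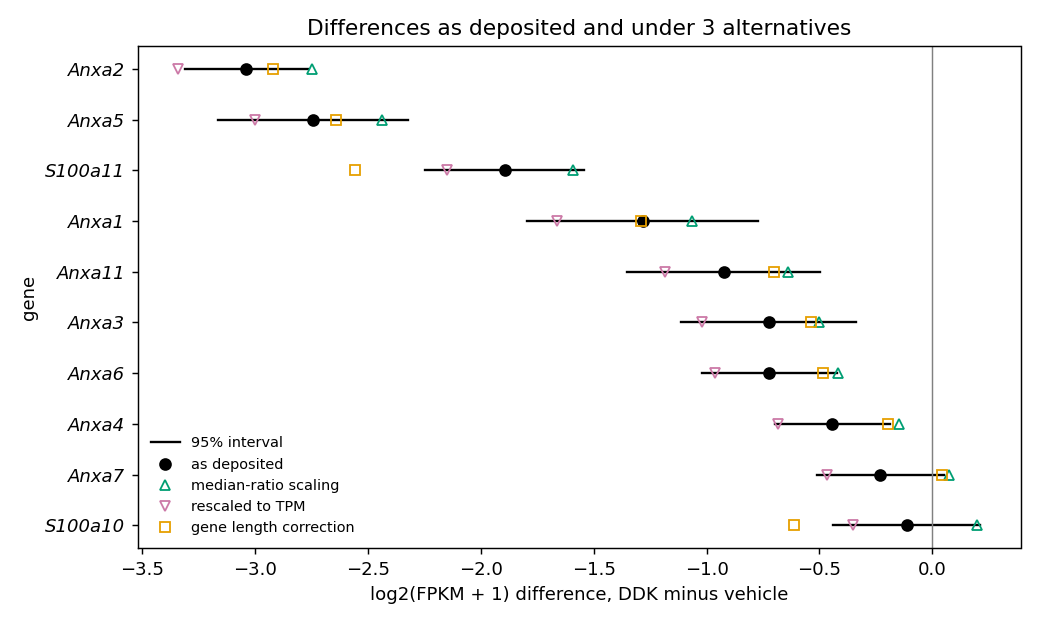
Difference in log2(FPKM + 1), DDK minus vehicle (horizontal axis), for each gene as deposited (black, with 95% interval) and under 3 alternatives (open symbols). Anxa2, Anxa5 and S100a11 stay far left of 0 under each of these, and only Anxa7 and S100a10 have symbols on both sides of 0.

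The order of abundance changed with these differences. In vehicle livers S100a10 was followed by Anxa5, S100a11, Anxa2, Anxa7, Anxa6, Anxa4, Anxa11, Anxa1 and Anxa3. The ranges of single livers overlapped between Anxa2 and Anxa7, Anxa7 and Anxa6, and Anxa1 and Anxa3. Compared liver by liver, Anxa1 stood above Anxa3 in every vehicle replicate, while the order within the other pairs varied. In DDK livers the order was S100a10, Anxa7, Anxa6, Anxa5, S100a11, Anxa4, Anxa11, Anxa2, Anxa3 and Anxa1, with overlaps from Anxa5 through S100a11 to Anxa4 and between Anxa3 and Anxa1. Anxa2 moved from rank 4 to rank 8 and Anxa7 from rank 5 to rank 2. The summed FPKM of the 8 annexins was 128, 125 and 143 in DDK and 313, 376 and 378 in vehicle. Anxa2 made up 4.998% ± 0.220 of that sum in DDK and 17.4% ± 0.924 in vehicle, and Anxa7 35.5% ± 0.929 and 15.8% ± 3.47.

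**Figure D4:**
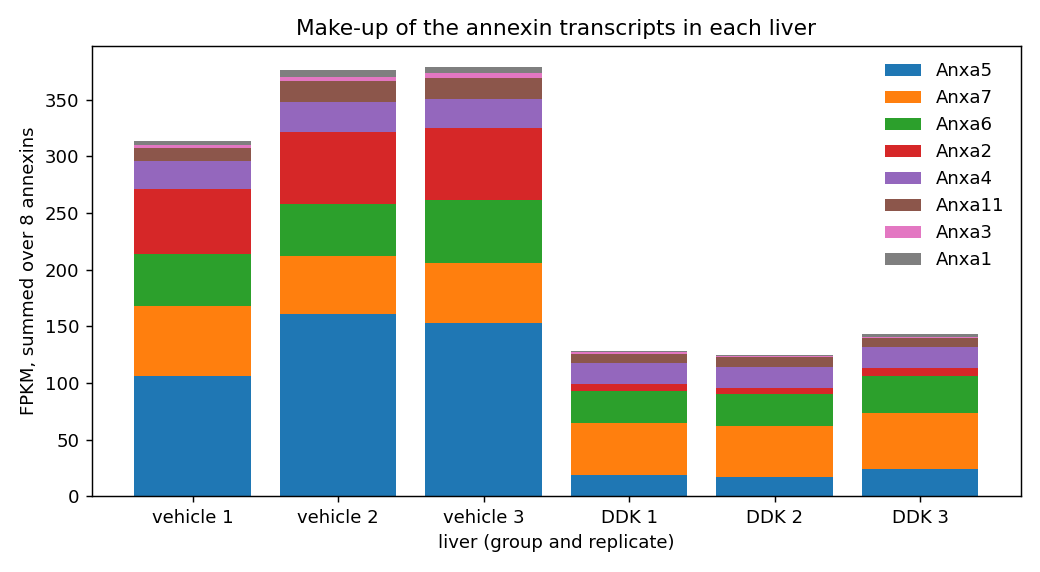
FPKM summed over the 8 annexins in each liver (vertical axis), split by gene, for vehicle and DDK replicates. The sum lies between 313 and 378 in vehicle and between 125 and 143 in DDK, and the Anxa5 and Anxa2 segments shrink most.

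Within the vehicle group, the size of the spread differed between genes. Vehicle replicate 1 was the lowest vehicle liver for 8 of the 10 genes, the exceptions being Anxa7 and S100a10, where 53.2% of all genes tested were lowest in that liver. The highest vehicle liver exceeded the lowest 1.70-fold for Anxa11, 1.65-fold for Anxa1, 1.605-fold for Anxa3 and 1.51-fold for Anxa5, but 1.10-fold for Anxa2, 1.119-fold for S100a11 and 1.04-fold for Anxa4. Without vehicle replicate 1 the difference was -1.47 for Anxa1, -2.93 for Anxa5, -1.16 for Anxa11 and -3.09 for Anxa2. Among DDK livers, replicate 3 was the highest for 8 of the 10 genes, where 41.4% of all genes were highest.

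Other genes whose levels followed Anxa2 most closely were ranked by Pearson's r of log2(FPKM + 1) over the 6 livers. The 5 at the top were Aldh3a2, a fatty aldehyde dehydrogenase (r = 0.999), Atxn10, C2cd2l, the long-chain acyl-CoA dehydrogenase gene Acadl and the monoglyceride lipase gene Mgll (r = 0.998 for each). All 6 points are shared by these genes and fall into the treatment groups, so r describes a common shape, 2 tight levels. Their differences were smaller than that of Anxa2, from -1.60 for Aldh3a2 to -0.49 for Acadl.

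Related genes outside the 10 were tested with limma across all genes, in 6 lists. Counts as deposited are to be read beside the 30.3% of all genes that were lower and the 10.2% that were higher. Counts under an alternative have other backgrounds. Lower and higher were 1650 and 1963 of 10681 genes after median-ratio scaling and 1743 and 1886 after quantile normalization. They were 4929 and 631 after rescaling to TPM, and 1843 and 1721 of 10671 after length correction. A gene whose DDK livers all lay under the filter of FPKM 0.5 entered only because its vehicle livers were high and had to differ. Such genes are given as levels, with no p-value, and each count is repeated without them. Genes with only some DDK livers under 0.5, such as Fpr1, Fpr2 and Plaur, stayed in the counts. They too needed their vehicle livers to pass. The remaining annexins were low in these livers. Anxa13, an epithelial annexin, was the only one of 4 to pass the filter and stood at 1.20 ± 0.535 in DDK and 0.829 ± 0.428 in vehicle (log2 difference 0.26 ± 0.21, limma adjusted p = 0.337). Single livers moved that value from 0.09 (without DDK replicate 3) to 0.44 (without DDK replicate 2). Anxa8 and Anxa9 lay below the filter, and Anxa10 was listed at 0 in every liver.

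Other S100 genes went both ways. Of 8 tested, 2 fell, 2 rose and 4 did not pass, with a median of -0.61 beside -0.23 for all genes. S100a9, the alarmin of neutrophils and monocytes, fell from 6.23 ± 1.79 to 2.53 ± 0.463 (-1.01 ± 0.20, limma adjusted p = 0.0045), and S100a4, made by fibroblasts and macrophages, fell from 3.86 ± 1.56 to 1.71 ± 0.261 (-0.80 ± 0.21, adjusted p = 0.0153). S100a1, a calcium sensor abundant in these livers, rose from 198 ± 20.3 to 306 ± 25.5 (0.63 ± 0.13, adjusted p = 0.00645). S100a13, which takes part in non-classical protein export, rose from 29.9 ± 3.57 to 49.1 ± 11.3 (0.68 ± 0.18, adjusted p = 0.0159). Both increases were lost after length correction, at 0.09 (adjusted p = 0.475) and 0.40 (0.0755), and then 4 S100 genes fell and 0 rose. S100a16 (-0.15, adjusted p = 0.39) and S100a6 (-0.42, 0.227) did not pass. S100a16 passed after rescaling to TPM (-0.38, adjusted p = 0.0465). S100a6 passed without vehicle replicate 1 (-0.70, adjusted p = 0.0382) and stood at -0.25 without vehicle replicate 3. S100a4 lost its call in 4 alternatives and S100a13 in 6, with adjusted p between 0.0525 and 0.0755.

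In the list of plasminogen activation and partners of the annexin A2 tetramer, 5 of 12 genes were lower (41.7%), 0 higher and 7 did not pass (median -0.50). Without Plau and Plat, which passed the filter through vehicle alone, 3 of 10 were lower with a median of -0.23, near the share and the median of all genes. Plau, the urokinase gene, stood at an FPKM of 0.286 ± 0.0555 with DDK and 1.67 ± 0.50002 with vehicle, a log2 difference of -1.04 that became -2.17 at a pseudocount of 0.1. Plat, the tissue activator gene, stood at 0.0800 ± 0.0932 and 0.841 ± 0.459, a difference of -0.75 that became -2.40 at that pseudocount and -3.71 with voom. Cd44, the hyaluronan receptor, fell by 0.86 (limma adjusted p = 0.00799) and Ctsb, the lysosomal protease cathepsin B, by 0.73, from 424 ± 38.0 to 255 ± 23.5 (limma adjusted p = 0.00362). After median-ratio scaling Ctsb lost its call (-0.42, adjusted p = 0.0581). Plg, plasminogen itself, had an FPKM of 651 ± 20.95 in vehicle livers against 662 ± 12.8 with DDK (0.03 ± 0.12, adjusted p = 0.886), a sign that turned after rescaling to TPM (-0.21) and after quantile normalization (-0.36, adjusted p = 0.0489, past the threshold). Serpinf2, the plasmin inhibitor gene, stood at 0.25 ± 0.12 (adjusted p = 0.133) and was higher after median-ratio scaling (0.56, adjusted p = 0.0191) and length correction (0.43, 0.0145). The list split 4 lower and 2 higher under median-ratio scaling and 5 lower and 1 higher under length correction.

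Of 6 tested genes in the list of annexin A1 receptors and eicosanoid enzymes, 3 were lower (50.0%, against 30.3% of all genes), 0 higher and 3 did not pass (median -0.55). Without Pla2g4a, which passed the filter through vehicle alone, 2 of 5 were lower (median -0.54). Those 2, Fpr1 and Fpr2, also needed their vehicle livers to pass the filter. Nothing is therefore read from this count or from their calls, and they are given as levels. Of these formyl peptide receptor genes, Fpr1 stood at 1.06 ± 0.533 with DDK and 3.58 ± 2.26 with vehicle (log2 difference -1.07 ± 0.33). Fpr2 stood at 0.400 ± 0.276 and 1.72 ± 1.03 (-0.91 ± 0.24). Both lost the call when DDK replicate 2 or DDK replicate 3 was left out, and with no filter on low values. Fpr1 also lost it without vehicle replicate 3, under quantile normalization and under median-ratio scaling. Pla2g4a, the phospholipase that annexin A1 restrains, stood at 0.260 ± 0.159 with DDK and 0.857 ± 0.204 with vehicle. Lta4h (0.10, limma adjusted p = 0.61) and Alox5ap (-0.54, 0.0589) did not pass. Alox5ap passed under TPM rescaling (-0.81, adjusted p = 0.0159), length correction (-0.75, 0.0147) and without DDK replicate 1 (-0.71, 0.0354).

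Membrane repair genes and calcium-binding partners were lower in 6 of 14 cases (42.9%, against 30.3% of all genes), with 0 higher and 8 not past the threshold (median -0.42). Without Myof, which passed the filter through vehicle alone, 5 of 13 were lower. Those that fell included Tgm2, transglutaminase 2 (-0.99 ± 0.16, limma adjusted p = 0.00215), Pdcd6ip, the ESCRT adaptor ALIX (-0.64, adjusted p = 0.00811), and Capn2, a calpain (-0.51, adjusted p = 0.00964). Median-ratio scaling ended the calls of Pdcd6ip (-0.35, adjusted p = 0.0515) and Capn2 (-0.21, 0.194), and quantile normalization (-0.30, 0.0662) and length correction (-0.22, 0.115) that of Capn2. Myof, the repair protein myoferlin, stood at 0.259 ± 0.0854 with DDK and 0.914 ± 0.283 with vehicle. Pdcd6, the sensor that binds annexin A11, stood at -0.34 (adjusted p = 0.0559) and Capns1 at -0.18 (adjusted p = 0.221), and both passed after rescaling to TPM (-0.58, 0.00697 and -0.42, 0.0139). After median-ratio scaling 3 of the 14 fell, after length correction 2 and after rescaling to TPM 11. Over all genes 1650, 1843 and 4929 were lower under these settings, against 3234 as deposited.

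Genes that expose or recognise phosphatidylserine fell in 6 of 11 cases (54.5%, against 30.3% of all genes) and rose in 0, and 5 did not pass (median -0.43). The count was 4 of 11 under length correction, quantile normalization or median-ratio scaling, and with no filter. It was also 4 of 11 without DDK replicate 2 or vehicle replicate 3, and 9 of 11 under TPM. Over all genes, 4929 were lower under TPM and 2500 of 16573 with no filter. The other settings named here gave 1650 to 1847 lower, against 3234 as deposited. Cd36, a scavenger receptor that also takes up fatty acids, fell from 78.5 ± 17.1 to 24.9 ± 1.14 (-1.60 ± 0.16, limma adjusted p = 0.000508). Axl, a receptor for phosphatidylserine-bridging ligands, fell by 1.18 ± 0.21 (adjusted p = 0.0034), Pros1, which encodes such a ligand, by 0.84 (adjusted p = 0.00215), and the scramblase gene Ano6 by 0.66 (adjusted p = 0.00572). Mfge8 (-0.38, adjusted p = 0.0874) and Stab1 (0.13, adjusted p = 0.661) did not pass, and Mfge8 passed under TPM (-0.62, adjusted p = 0.0219). None of the lists was tested as a set.

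**Figure D5:**
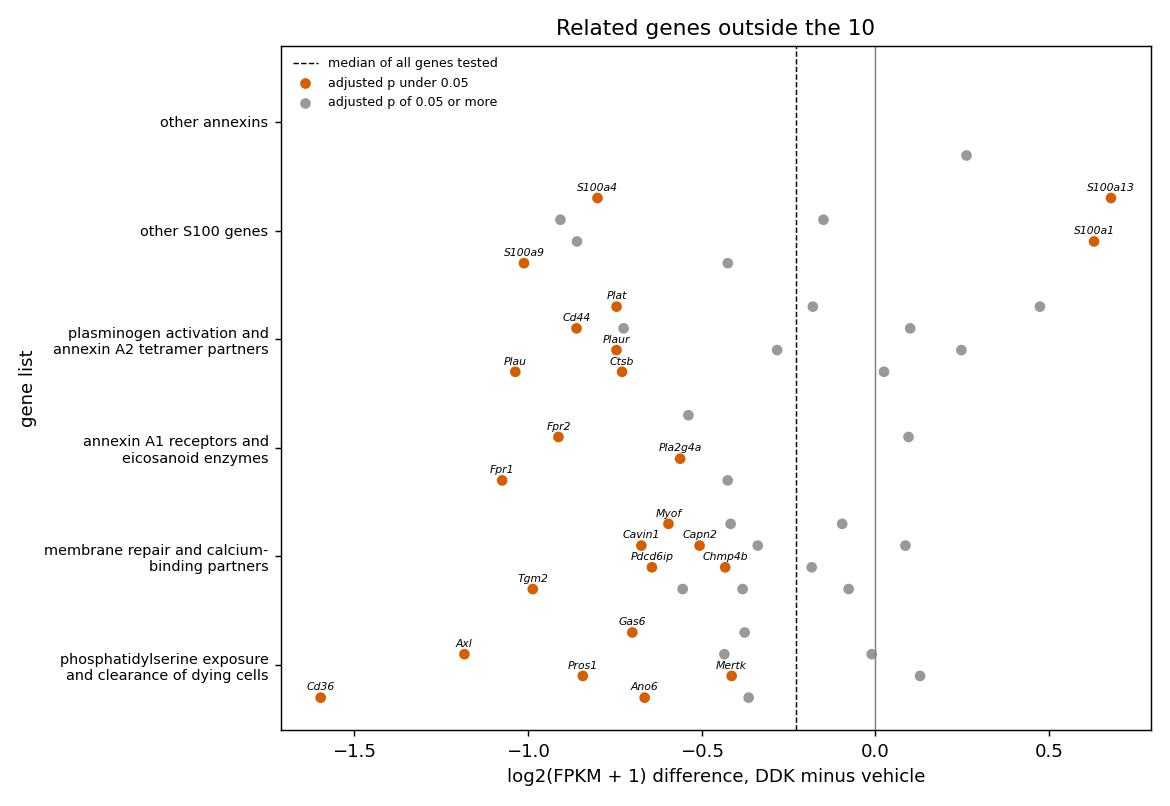
Difference in log2(FPKM + 1), DDK minus vehicle (horizontal axis), for the tested genes of 6 lists (rows), orange where limma's adjusted p was under 0.05. The dashed line is the median of all genes, -0.23, the only orange points to the right of 0 are S100a1 and S100a13, and Plau, Plat, Pla2g4a and Myof are orange after entering through vehicle alone.

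Marker lists of several cell types are given beside these genes, with 30.3% of all genes lower as the background. Of 11 markers of monocytes and lipid-associated macrophages 9 were lower, or 5 of 7 without Gpnmb, Mmp12, Itgax and Ccr2, which passed the filter through vehicle alone, and the summed FPKM of the list was 110 to 141 in DDK and 313 to 498 in vehicle. The Kupffer cell list had 3 of 8 genes lower (37.5%), with sums of 78.1 to 200.4 and 209 to 349. Cd5l alone stood at 34.1 to 85.5 in DDK and 114 to 184 in vehicle, most of the gap between these sums. In that list Adgre1 (-1.76), Cd5l (-1.33) and Csf1r (-1.28) did not overlap between the groups. Clec4f, Vsig4, Timd4, Marco and Folr2 overlapped. Of 11 stellate cell and fibroblast markers 8 fell, with sums of 62.5 to 86.9 and 141 to 186. Of 9 endothelial markers 5 fell, with sums of 44.3 to 57.0 and 70.3 to 103. Trem2 in the macrophage list, and Col1a1 and Timp1 in the stellate list, had some but not all DDK livers under FPKM 0.5. They stayed in the counts but needed their vehicle livers to pass the filter, so these counts are not free of it. Bile duct and progenitor markers overlapped, at 37.5 to 64.2 and 47.6 to 72.3, with 1 of 7 tested lower and 1 higher. Most of that sum was Spp1 (32.8 to 57.2 in DDK and 43.5 to 63.0 in vehicle), which also stands in the macrophage list. The sum therefore says little about bile duct cells. Hepatocyte markers summed to 63546 to 66745 in DDK and 39221 to 50589 in vehicle, with 4 of 10 higher and 1 lower. Alb alone stood at 33702 to 37838 in DDK and 17336 to 21423 in vehicle, most of the gap between these sums. Tat (-0.64), Cps1 (-0.45), Pck1 (-0.40) and Cyp2e1 (-0.11) had negative differences and the other hepatocyte markers positive ones. The hepatocyte sum therefore says little about the number of hepatocytes.

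The remaining marker lists were small or overlapping. Neutrophil markers summed to 2.50 to 8.95 in DDK and 12.3 to 14.6 in vehicle, and dendritic cell markers to 0.824 to 1.30 and 1.96 to 2.75. Each had 1 gene lower, for dendritic cells Itgax, which passed through vehicle alone. Itgax stood at 0.0687 to 0.174 in DDK and 0.879 to 1.36 in vehicle, most of the gap in the dendritic sum. The rest of that list overlapped between the groups. Red blood cell markers had 1 of 5 lower and 2 higher. Sums of T and NK cell (1.86 to 7.72 and 1.85 to 4.74), B and plasma cell (2.58 to 4.99 and 3.80 to 4.87), mesothelial (1.10 to 2.99 and 2.12 to 7.45) and red blood cell markers (368 to 726 and 391 to 530) overlapped between the groups. No measured marker in these 12 lists was at 0 in every liver. The part of any of these cell types in the differences of the 10 genes was not tested. S100a8 and S100a9 are in both the S100 list and the neutrophil list. Timd4 and Stab2 are in both the phosphatidylserine list and a marker list, and Spp1, Itgax and Krt19 are shared between marker lists.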

How the data were processed

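RNA-seq of 6 livers was used, 3 from DDK and 3 from vehicle mice, grouped by their titles. The authors deposited FPKM values per gene symbol. Per the submitters' processing notes the build was GRCm38 (mm10), and the aligner, counter and annotation are not given in the sources used here. Per the labels' protocols, 1.3 µg of RNA per library went into an NEBNext Ultra kit, which does not mark strand.

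Library totals and whole fragments were recovered from the steps between FPKM values, and 99.6% of values came out whole within 0.01 of a fragment. The DDK totals ran from 26576291 to 30237490 and the vehicle totals from 33963898 to 36105315. For a gene of 1000 bp, 3 fragments equal an FPKM of 0.0831 to 0.113, which covers counting error only.

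Values were compared as log2(FPKM + 1) with limma 3.58.1 (R 4.3.3) and a variance trend, over the 10681 genes that reached FPKM 0.5 in 3 or more libraries. Benjamini-Hochberg adjustment ran over all of them, with a threshold of 0.05, and 3234 genes were lower and 1093 higher. The fit was tested on simulated data. Named genes were the 10 members, up to 4 genes past the threshold with the smallest p and the 2 most abundant others per list, and 5 genes most like Anxa2. The members, lists and motifs were chosen with earlier results of these data known. Positions are from GENCODE M21, and 7 members had a RefSeq promoter window. The alternatives were 11 other settings, each library left out in turn, and voom on the recovered fragments, which was added after seeing the data.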

Additional observations from a re-analysis of the deposited data

How the results depend on the processing

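All alternatives kept the direction of Anxa1, Anxa2, Anxa3, Anxa4, Anxa5, Anxa6, Anxa11 and S100a11, and only Anxa4 lost its call among them. The scaling set the level of all genes: the median log2 difference was -0.23 as deposited, 0.00 after median-ratio scaling and -0.45 after rescaling to TPM, where calls were 1650 lower and 1963 higher and 4929 lower and 631 higher. Leaving out single libraries gave 2348 to 5686 genes past the threshold (4327 with all 6), the lowest without DDK replicate 2 (2796 without DDK replicate 1, 2490 without vehicle replicate 3). Anxa7 turned to 0.0746 after median-ratio scaling and 0.0442 after length correction. S100a10 turned to 0.20 after median-ratio scaling and ranged from -0.215 to 0.0091 with libraries left out.

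Counts of listed genes past the threshold moved as follows, while the counts over all genes moved with the setting too. Without a filter 2 other S100 genes and 1 annexin A1 list gene passed. At an FPKM filter of 1, 3 plasminogen and 1 annexin A1 list gene passed, fewer being tested. Quantile normalization gave 8 plasminogen genes, median-ratio scaling 3 membrane repair genes, length correction 2 membrane repair genes, and TPM 11 membrane repair and 5 annexin A1 list genes. With libraries left out the annexin A1 list had 1 (without DDK replicate 2 or 3) to 5 (without DDK replicate 1). Among genes that had not passed, these turned sign, Plg passing under quantile normalization and S100a16 passing with its first sign under TPM: S100a16 (0.14 median-ratio, 0.0896 quantile, 0.0026 length correction), Plg (-0.36 quantile, -0.21 TPM, -0.0018 to 0.0397 with libraries left out), Lta4h (-0.13 TPM), Capns1 (0.12 median-ratio, 0.0016 length correction) and Stab1 (-0.0631 TPM, -0.0195 to 0.372 with libraries left out). Causes were not tested.

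Replicate numbers did not pair the mice (correlations of same-numbered deviations 0.141, -0.146 and 0.0558, and not every liver correlated best with its own number). With the replicate block 4134 genes passed, and 8 of the 10 members.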
